A study of Mus musculus with 8 samples.

Results

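Gene expression in MC3T3 cells, an osteoblast line, was compared with that in NIH3T3 cells, a fibroblast line, across all genes on 2 arrays per line. The 4 arrays were chosen by their labelled line out of 8 arrays in the series, and the 4 arrays of the OP9 marrow stromal line did not enter the comparison. The series was made to find signals between stromal cells and developing B-lymphocytes. NIH3T3 cells were included as a stroma that does not carry B-cell development, and MC3T3 cells as a further cell type of the bone marrow. The labels describe NIH3T3 as a mouse embryonic fibroblast line and MC3T3 as a mouse line with osteoblast character, and they give the strain of both as Balb/c. No co-culture is named for either line. Both were grown in DMEM with 10% FCS and 50 µg/ml gentamicin, and labelled RNA from 2000 cells went onto each Affymetrix Mouse Genome 430 2.0 array. Neither label mentions a mineralising or other differentiating medium. The second MC3T3 array is described as made from sorted cells and the first from a culture. The labels name the 2 arrays per line as biological replicates, but no source says that separate cultures were used. The p-values therefore measure a spread between 2 arrays that may be technical.

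Osteoblasts are the cells that lay down bone. They secrete a matrix built on type I collagen, mineralise it with the help of phosphatases and phosphate-binding proteins, and are known to follow the transcription factors of the Runx, Sp and Dlx families. Fibroblasts share much of the same collagen programme and are usually told from osteoblasts by the mineralisation genes and from each other by their position in the body, which the Hox, Eya and Prrx transcription factors record. Both cell types serve as stroma, in that they offer adhesion molecules, chemokines and growth factors to neighbouring blood cells.

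The values are normalized intensities on a linear scale, with 100 as the level a gene had to reach on at least 2 of the 4 arrays to be tested. The medians of the arrays were 41.8 to 45.0, and of 45101 probe sets 34.3 to 35.9% were at 100 or more. Over the genes tested the median absolute log2 difference between the arrays of a line was 0.086 for MC3T3 and 0.14 for NIH3T3. The array described as sorted differed from the cultured MC3T3 array by more than 2-fold in 1 gene, whereas the NIH3T3 arrays differed so in 49 genes.

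The labelled cell types were checked against marker genes. Of 8 osteoblast markers with a named probe set, 4 stayed below 100 in both lines. These were Sp7, the zinc finger factor of committed osteoblasts, Alpl, the alkaline phosphatase of mineralising matrix, Ibsp, a sialoprotein of bone, and Pth1r, the receptor for parathyroid hormone. Alpl read 31.9 and 23.1 in MC3T3 cells and 50.1 and 39.0 in NIH3T3 cells. Cdh11 and Dmp1 were higher in MC3T3 cells, Phex was lower and Col1a1 was not called, so the data bear out the osteoblast label in part of its markers. Of 8 fibroblast markers 7 were tested, with 3 higher in MC3T3 cells, 1 lower and 3 not called. The markers of skeletal muscle, endothelium and leukocytes, 4, 5 and 5 genes, were all below 100 on at least 3 of the 4 arrays.

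Of 18194 genes with a named probe set, 9486 were tested, and 2682 of these, 28.3%, were called different between the lines. A call needed an adjusted p below 0.05 from limma and a difference of at least 2-fold. Of the genes tested, 1724 or 18.2% were higher in MC3T3 cells and 958 or 10.1% were lower. The counts of each gene list below are to be read against these shares. The arrays of the lines overlapped in none of the called genes, but they were also apart in 86.1% of all genes tested. The median log2 difference over all genes tested, MC3T3 minus NIH3T3 as everywhere below, was 0.12, so the share called is wide and leans towards the osteoblast line. That median became -0.01 with quantile normalization and 0.20 with median scaling, and 57.0% and 69.3% of the calls were then higher in MC3T3 cells, against 64.3% as reported. Differences of at least 10-fold were called in 231 genes higher and 97 genes lower. In 713 of the genes higher in MC3T3 cells the NIH3T3 level was under 100, and in 332 of those lower the MC3T3 level was. A fold against such a level rests on the background reading of the array, so measured values are given first, and where it matters the fold over 100 is given as well. The arrays were made from whole RNA of each line, in which fewer cells with a transcript and less transcript per cell cannot be told apart.

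**Figure D1:**
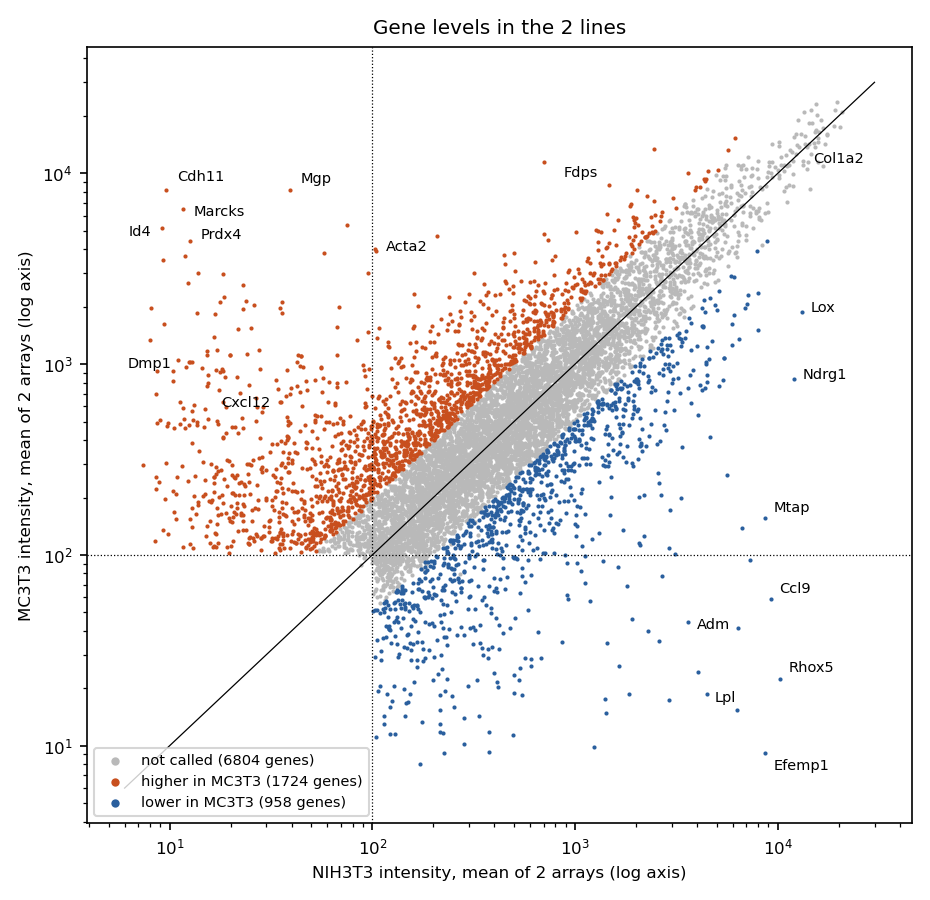
Mean intensity of each of the 9486 genes tested in MC3T3 cells (vertical, log axis) against NIH3T3 cells (horizontal, log axis), each a mean of 2 arrays. Orange points are the 1724 genes called higher in MC3T3 cells, blue points the 958 called lower and grey points the 6804 not called. The solid line marks equal levels and the dotted lines a level of 100. Cdh11 and Efemp1 lie at the far corners, and the called genes run from strongly expressed enzymes such as Fdps to genes near the background of 1 line.

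The gene furthest towards MC3T3 cells was Cdh11, cadherin-11, the cell adhesion molecule of osteoblasts and other mesenchymal cells. Its intensity was 8501 and 7914 in MC3T3 cells and 10.5 and 8.80 in NIH3T3 cells, a log2 difference of 9.74 ± 0.12 (SE) with an adjusted p of 1.2e-06 from limma. Id4, a helix-loop-helix protein that blocks DNA binding of its partners, read 5158 and 5139 in MC3T3 cells and 9.69 and 8.60 in NIH3T3 cells. Marcks, a membrane and actin binding substrate of protein kinase C, read 6485 and 6535 in MC3T3 cells and 10.2 and 13.2 in NIH3T3 cells. All of these transcripts were far above 100 in MC3T3 cells and at background in NIH3T3 cells. The surface peptidase Mme, also known as CD10, read 3610.1 and 3379 in MC3T3 cells and 9.67 and 8.97 in NIH3T3 cells. Ptn, the heparin-binding growth factor pleiotrophin, read 4079.8 and 3305 in MC3T3 cells and 11.2 and 12.6 in NIH3T3 cells. Slit2, a guidance ligand of Robo receptors, read 2987 and 2995 in MC3T3 cells and 14.7 and 12.96 in NIH3T3 cells. All NIH3T3 arrays of these 6 genes read under 15, and the log2 differences ran from 7.76 to 9.74.

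The log2 differences of the next 3 genes described were 7.72, 7.09 and 7.93. Mgp, matrix Gla protein, which keeps soft tissue from calcifying, read 8364 and 8084 in MC3T3 cells and 35.0 and 43.7 in NIH3T3 cells. Sostdc1, a secreted antagonist of BMP and Wnt ligands, read 1810.2 and 1899 in MC3T3 cells and 14.2 and 13.1 in NIH3T3 cells. Atp1b1, the beta subunit of the sodium pump, read 1937 and 2013 in MC3T3 cells and 8.81 and 7.40 in NIH3T3 cells. The remaining genes among the 15 with the largest fold were Prdx4, Sorbs2, an adaptor of the actin cytoskeleton, Vgll3, a cofactor of TEAD factors, Afap1l2, Prune2 and Cyp1a1, at log2 differences of 8.47, 7.77, 7.43, 7.38, 7.34 and 6.93. For Prune2 only 1 of 3 probe sets at 100 went in this direction. Taken over a floor of 100 the 15 genes were still 13.4 to 82.2 times higher.

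In the other direction the largest difference was that of Efemp1, fibulin-3, a glycoprotein of basement membranes and elastic fibres. It read 8588 and 8765 in NIH3T3 cells and 8.15 and 10.1 in MC3T3 cells, a log2 difference of -9.90 ± 0.13 (SE) with an adjusted p of 1.2e-06. Rhox5, an X-linked homeobox gene of the reproductive tract and placenta, read 10164 and 10324 in NIH3T3 cells and 25.9 and 19.1 in MC3T3 cells. Rpl39l, a relative of the ribosomal protein gene Rpl39 known from testis, read 6618 and 5946 in NIH3T3 cells and 14.6 and 16.3 in MC3T3 cells. These were the 2 tested members of a list of germ line and pluripotency genes of which 19 others stayed below 100 in both lines. Lpl, lipoprotein lipase, read 4342 and 4583 in NIH3T3 cells and 23.4 and 14.1 in MC3T3 cells. Ccl9, a chemokine of the CC family, read 9057 and 9463 in NIH3T3 cells and 59.7 and 57.3 in MC3T3 cells. Mgst1, the microsomal glutathione transferase, read 6079 and 6579.7 in NIH3T3 cells and 42.3 and 40.5 in MC3T3 cells. Every NIH3T3 array was thus far above 100 for these genes, and every MC3T3 array was under 100.

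The other genes of the 15 furthest towards NIH3T3 cells were of varied kinds. Ifi202b, an interferon-inducible gene, had a log2 difference of -7.38, the tight junction protein Cldn9 -6.98, mesothelin Msln -6.64 and the water channel Aqp5 -6.21. The vasodilator peptide gene Adm stood at -6.34, the chemokine Cxcl1 at -6.33 and the aldehyde dehydrogenase Aldh3a1 at -6.28. A pair of RIKEN genes, 2610528A11Rik and 3110039M20Rik, stood at -7.38 and -6.56. Over a floor of 100 the 15 genes were 12.4 to 102 times higher in NIH3T3 cells.

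Outside the rule by which genes were named, several loci were chosen after the values were seen. Mtap, an enzyme that salvages adenine and methionine, read 8727 and 8637 in NIH3T3 cells and 179 and 132 in MC3T3 cells, with a log2 difference of -5.82 and an adjusted p of 5e-06. The genes annotated next to it, the cell cycle inhibitors Cdkn2a and Cdkn2b, had mean levels of 19.1 and 27.7 in NIH3T3 cells and 12.96 and 22.3 in MC3T3 cells, under 100 in both lines. Prdx4, a peroxiredoxin of the endoplasmic reticulum, read 4566 and 4308 in MC3T3 cells and 13.6 and 11.6 in NIH3T3 cells. Its annotated neighbours Acot9 and Sat1 were not called, at mean levels of 2805 and 2268 in MC3T3 cells and 2169.7 and 2355 in NIH3T3 cells. Of the other tested genes among the 5 annotated on each side of Prdx4, Mbtps2 was not called, at a log2 difference of -0.29, and Phex was lower at -2.17. Among the 5 on each side of Marcks all 4 tested genes were called higher, Lama4 at 4.24, Frk at 1.78, Fam229b at 1.32 and Hdac2 at 1.07. The share called higher over all genes was 18.2%. Near Efemp1, Prorsd1 and Vrk2 were higher at 5.34 and 1.07 and Fancl was lower at -1.25. Near Crtap only Fbxl2 was called, higher at 1.55, and near Rpl39l no tested neighbour was called. Whether neighbouring genes changed together was not tested.

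The osteoblast transcription factors did not move as a group. Of 11 with a named probe set 6 were tested, with 2 higher in MC3T3 cells, 2 lower and 2 not called. Dlx5, a homeobox factor of bone and the branchial arches, read 522 and 667 in MC3T3 cells and 32.2 and 25.6 in NIH3T3 cells, a log2 difference of 4.36 ± 0.17 (SE) with an adjusted p of 1.5e-05. Cbfb, the partner subunit of the Runx factors, read 2402 and 2434 in MC3T3 cells and 845 and 1008 in NIH3T3 cells. Both were clearly apart between the lines. Fosl2, an AP-1 protein that acts in osteoblasts, read 1962 and 1888 in NIH3T3 cells and 307 and 276 in MC3T3 cells. Twist2, a helix-loop-helix factor that holds back osteoblast maturation, read 543 and 448 in NIH3T3 cells and 95.5 and 98.7 in MC3T3 cells. Its relative Twist1 had a log2 difference of -0.71 and Atf4, a driver of amino acid supply in osteoblasts, one of 0.14, and neither was called. Sp7, Dlx3, Dlx6, Msx1 and Msx2 stayed below 100 on at least 3 of the 4 arrays.

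Among genes of bone matrix and mineralisation 8 of 16 with a named probe set were tested, 3 were higher in MC3T3 cells and 1 was lower. Dmp1, an acidic matrix protein best known from osteocytes and dentine, read 969.7 and 1142 in MC3T3 cells and 10.7 and 11.3 in NIH3T3 cells, a log2 difference of 6.58 ± 0.11 (SE). Postn, periostin, a protein of the periosteum, read 1969.6 and 2249 in MC3T3 cells and 31.9 and 40.1 in NIH3T3 cells. Phex, a peptidase of osteocytes that governs phosphate handling, read 109 and 159 in NIH3T3 cells and 29.7 and 28.6 in MC3T3 cells and so ran the other way, though with values under 100 raised to 100 it stood at -0.39 with an adjusted p of 0.12 and was not called. The main collagen chains of bone did not separate the lines by 2-fold. Col1a1 read 2239 and 2200.3 in MC3T3 cells and 3542 and 2906 in NIH3T3 cells, with a log2 difference of -0.53 ± 0.12 (SE). Col1a2 read 14355 and 14084 in MC3T3 cells and 14019.9 and 13304 in NIH3T3 cells, with a difference of 0.06 ± 0.09 (SE). Of 2 probe sets at 100 for Col1a1 only 1 went in this direction, and of 3 for Col1a2 only 2. Sparc, osteonectin, differed by 0.37 and the pyrophosphate transporter Ank by -0.75. Alpl, Ibsp, Mepe, Sost, Ifitm5, Smpd3, Omd and Tnn read at most 60.3.

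Receptors and signals of osteoblasts gave 4 genes higher, 1 lower and 3 not called of 8 tested. Gja1, connexin 43, the gap junction protein of the osteoblast and osteocyte network, read 5816 and 5561 in MC3T3 cells and 1422 and 1852 in NIH3T3 cells. Fgfr3 and Fgfr1, receptors for fibroblast growth factors, had log2 differences of 1.87 and 1.16. Ptger4, a prostaglandin E2 receptor with a role in bone formation, read 579.8 and 631 in NIH3T3 cells and 32.4 and 24.9 in MC3T3 cells, a log2 difference of -4.41 ± 0.15 (SE). Bmp2, Tnfsf11, the RANK ligand, and its decoy receptor Tnfrsf11b were among the 6 members below the level for testing. With values under 100 raised to 100 the number of members higher fell from 4 to 2.

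Cartilage genes were for the most part not read above background, since 15 of 18 with a named probe set did not reach 100 on 2 arrays. The 3 tested members were all higher in MC3T3 cells. Col2a1, the main collagen of cartilage, read 611 and 633 in MC3T3 cells and 77.4 and 53.7 in NIH3T3 cells. Col11a1, which starts collagen fibrils in cartilage and bone, read 552 and 471 in MC3T3 cells and 7.42 and 10.6 in NIH3T3 cells. Sox9, the leading factor of chondrocytes, differed by 1.02 ± 0.09 (SE), with an adjusted p of 0.0003, and it was no longer 2-fold with quantile normalization, at 0.87, with the mean of its probe sets, at 0.40, or with the probe set chosen over all 8 arrays, at 0.44. Acan, Comp and Matn3 were below 100, so the collagens and Sox9 were not joined by the other defining cartilage genes.

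Contractile genes leaned towards MC3T3 cells, with 6 of 13 tested members higher, against 18.2% of all genes, and none lower. Their median log2 difference was 0.94 against 0.12 over all genes. Acta2, smooth muscle actin, read 3778 and 4064 in MC3T3 cells and 115 and 92.5 in NIH3T3 cells. Of its 3 probe sets only 1 was at 100, an _s_at set, which can bind related transcripts. Myl9, a myosin light chain, Csrp1, a LIM protein, and Mylk, myosin light chain kinase, had log2 differences of 3.35, 3.28 and 2.80. The smooth muscle markers Cnn1 and Myh11 were below 100, Des read at most 103, and Tagln was not called.

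On the cell surface 7 of 15 tested mesenchymal and fibroblast molecules were higher in MC3T3 cells and 3 lower. Besides Mme, Thy1, the glycoprotein CD90, read 1255 and 1104 in MC3T3 cells and 30.8 and 24.3 in NIH3T3 cells. Vcam1, the ligand of integrin alpha 4 on lymphocytes, read 2683 and 2654 in MC3T3 cells and 429.9 and 487 in NIH3T3 cells. Cspg4, the proteoglycan NG2 of pericytes, had a log2 difference of 2.41. Lower were Pdgfra, with -1.50, Eng, the TGF-beta co-receptor endoglin, with -1.14, and the peptidase Anpep, with -1.01. Without the first NIH3T3 array 1 of these 3 remained called, with Eng at -0.99 and Anpep at -0.83. With the mean of the probe sets Pdgfra, at -0.84, and Eng, at -0.77, were not called. Fap was below 100 in both lines.

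Positional transcription factors differed widely between the lines. Of 25 tested factors of head and limb development 12 were higher in MC3T3 cells, 5 lower and 8 not called, with a median log2 difference of 0.54. The shares over all genes tested were 18.2% higher and 10.1% lower. Eya1, a phosphatase and coactivator of head mesenchyme, read 1584 and 1176 in MC3T3 cells and 19.5 and 13.7 in NIH3T3 cells. Its relative Eya4 read 969 and 1082 in MC3T3 cells and 11.5 and 13.7 in NIH3T3 cells. Alx1, a homeobox factor of the frontonasal region, read 466 and 500.4 in MC3T3 cells and 11.1 and 11.5 in NIH3T3 cells. Six2, a partner of the Eya proteins, read 1016 and 1183 in MC3T3 cells and 33.5 and 55.8 in NIH3T3 cells. In all of these the NIH3T3 arrays stayed near background. On the other side Foxf2, a forkhead factor of palate and gut mesenchyme, read 349 and 394 in NIH3T3 cells and 28.7 and 28.7 in MC3T3 cells. Six4, Meis1 and Tbx18 were lower by log2 differences of -2.65, -1.78 and -1.47, so Six2 and Six4 stood on different sides.

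The Hox genes, which mark position along the body axis, ran largely the other way. Of 33 with a named probe set 24 were below the level for testing. Of the 9 tested 7 were lower in MC3T3 cells, against 10.1% of all genes, 1 was higher and 1 was not called. Their median log2 difference was -2.56. Hoxa5 read 1167 and 986 in NIH3T3 cells and 108 and 114 in MC3T3 cells, a log2 difference of -3.27 ± 0.11 (SE). Hoxa7 read 764 and 625 in NIH3T3 cells and 109 and 97.0 in MC3T3 cells. Hoxa2 read 212 and 245 in NIH3T3 cells and 18.3 and 20.3 in MC3T3 cells. Hoxd9, Hoxd8, Hoxa3 and Hoxb13 followed with log2 differences of -2.56, -3.00, -1.94 and -1.55. The genes lower in MC3T3 cells belong to the clusters a, b and d. Hoxa10 was the exception, with 152 and 129 in MC3T3 cells and 15 and 10.8 in NIH3T3 cells. It lies in the same cluster as Hoxa5 and Hoxa7, and over a floor of 100 its difference was 1.40-fold, which is no longer a call. On that scale Hoxd8 and Hoxb13 were not called either, at -0.57 and -0.45 with adjusted p of 0.075 and 0.17, so that 5 in place of 7 Hox genes were lower and the median was -1.19. Hoxc9 read 144 and 147 in MC3T3 cells and 153 and 138 in NIH3T3 cells, and its arrays overlapped.

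**Figure D2:**
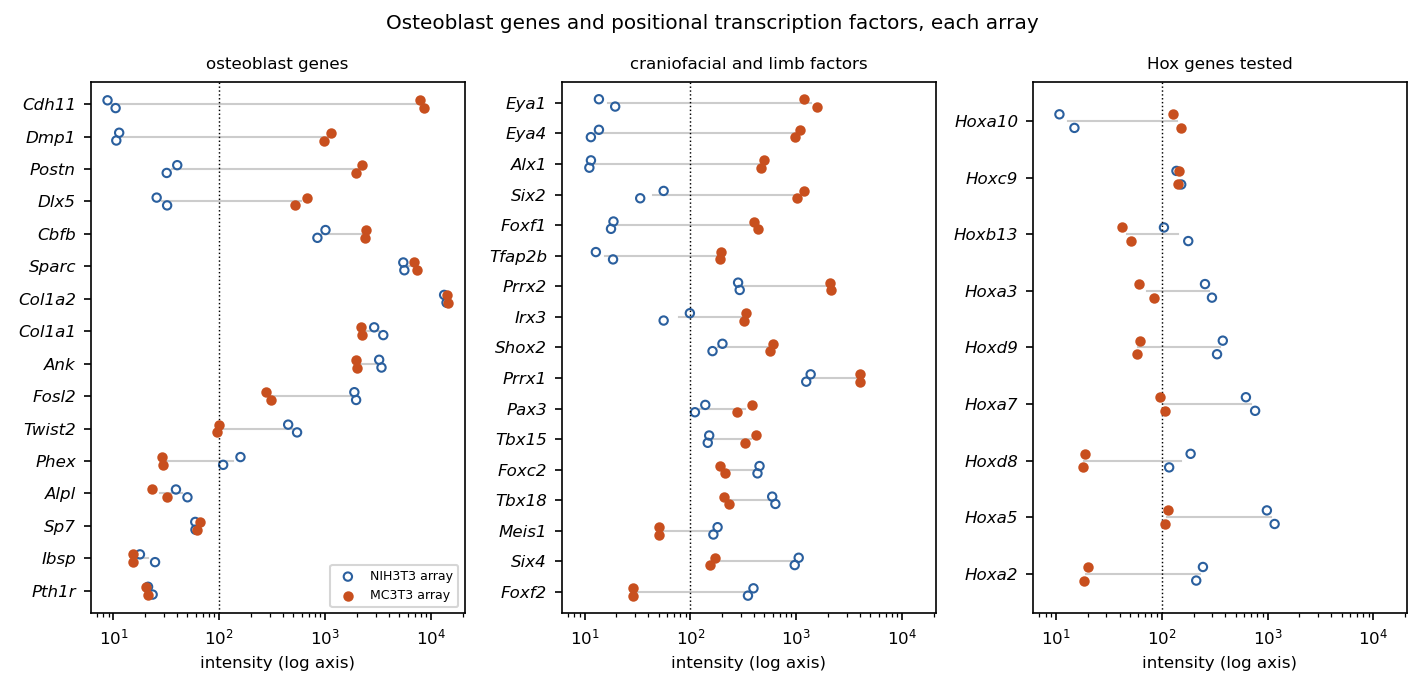
Intensity of each array (log axis) for osteoblast genes, craniofacial and limb transcription factors and the 9 tested Hox genes. Filled orange points are the 2 MC3T3 arrays and open blue points the 2 NIH3T3 arrays, the grey line joins the means and the dotted line marks 100. Cdh11, Dmp1 and the Eya genes are high on the MC3T3 arrays and near 10 to 20 on the NIH3T3 arrays, Alpl, Sp7, Ibsp and Pth1r are low on all 4, and 7 of the 9 Hox genes lie higher on the NIH3T3 arrays.

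Fibrillar and associated collagen chains divided between the lines. Of 17 tested, with Col1a1 and Col1a2 among those not called, 7 were higher in MC3T3 cells and 5 lower. Col3a1, the collagen of soft and healing tissue, read 3728 and 3745 in MC3T3 cells and 455 and 433 in NIH3T3 cells, a log2 difference of 3.07 ± 0.09 (SE). Col8a2, a short-chain collagen, and Col5a3 were higher by 3.60 and 1.19. Lower were Col18a1, the source of endostatin, with 831 and 834 in NIH3T3 cells and 192 and 188 in MC3T3 cells, Col16a1 with a log2 difference of -1.92, Col5a1 with -1.65 and Col6a3 with -1.43. The chains of type V collagen thus did not go together, as Col5a3 was higher where Col5a1 was lower. With quantile normalization 4 in place of 7 chains were called higher.

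Enzymes that modify and cross-link collagen, together with elastic fibre proteins, were more often lower in MC3T3 cells, 10 of 22 tested against 4 higher. The shares over all genes tested were 10.1% lower and 18.2% higher. The median log2 difference of the list was -0.64. Lox, lysyl oxidase, which cross-links collagen and elastin, read 13236 and 13122 in NIH3T3 cells and 1857 and 1905 in MC3T3 cells, a log2 difference of -2.81 ± 0.09 (SE) and an adjusted p of 6.8e-06. Lox lies outside the members with the largest fold and was named after its values were seen. Plod1, a lysyl hydroxylase of collagen, read 3256 and 3457 in NIH3T3 cells and 377 and 362 in MC3T3 cells. Fbln1, fibulin-1, read 647 and 660.0 in NIH3T3 cells and 38.6 and 40.3 in MC3T3 cells, and Loxl1, a relative of Lox needed for elastic fibres, differed by -2.68. Higher in MC3T3 cells were Crtap, part of the prolyl 3-hydroxylase complex, with 2064 and 2217 in MC3T3 cells and 24.7 and 23.1 in NIH3T3 cells, Pcolce2, an enhancer of procollagen cleavage, with a log2 difference of 4.41, P4ha3, a prolyl 4-hydroxylase subunit, with 2.97, and Bmp1, the procollagen C-proteinase, with 1.53. With values under 100 raised to 100 P4ha3 stood at 0.75 with an adjusted p of 0.076 and was not called. The crosslinking and lysyl hydroxylation enzymes named here were therefore on the NIH3T3 side, and Crtap, Pcolce2 and Bmp1 on the MC3T3 side.

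Basement membrane genes were split evenly, 5 higher and 5 lower of 13 tested, with different chains of the same proteins on each side. Over all genes tested 18.2% were higher and 10.1% lower. Type IV collagen is built from several alpha chains, and Col4a1 read 367 and 499 in MC3T3 cells and 19.9 and 23.8 in NIH3T3 cells. Col4a2 read 573 and 544 in MC3T3 cells and 29.5 and 27.5 in NIH3T3 cells. Col4a6 instead read 2072 and 2117 in NIH3T3 cells and 362 and 384 in MC3T3 cells, and Col4a5 was lower by a log2 difference of -2.10. Among the laminin alpha chains Lama4 read 508 and 495 in MC3T3 cells and 30.1 and 23.3 in NIH3T3 cells, whereas Lama5 read 1839.8 and 1755 in NIH3T3 cells and 65.0 and 71.9 in MC3T3 cells. Nid2 and Nid1, the nidogens that link laminin to collagen, were higher by 5.30 and 1.76. Agrn, agrin, was lower by -3.16, and Lamc1, the gamma chain shared by most laminins, by -1.06.

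Small leucine-rich proteoglycans, which bind collagen fibrils, gave 3 genes higher and 2 lower of 7 tested. Fmod, fibromodulin, read 958 and 1263 in MC3T3 cells and 21.6 and 18.2 in NIH3T3 cells. Lum, lumican, read 693 and 768 in MC3T3 cells and 19.2 and 15.8 in NIH3T3 cells. Dcn, decorin, read 1072 and 1125 in MC3T3 cells and 45.5 and 43.7 in NIH3T3 cells. Ogn, mimecan, read 5778 and 6071 in NIH3T3 cells and 1531 and 1697 in MC3T3 cells, and Prelp was lower by -2.38, so this family too had members on both sides.

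Matricellular proteins, which sit in the matrix and signal to cells, were higher in 6 and lower in 8 of 17 tested. Ccn3 read 1138 and 1101 in MC3T3 cells and 14.3 and 16.3 in NIH3T3 cells, while its relative Ccn2, connective tissue growth factor, read 2047 and 2096 in NIH3T3 cells and 109 and 120.5 in MC3T3 cells, so the CCN family was divided. Sparcl1, hevin, read 3919.7 and 4121 in MC3T3 cells and 106 and 99.0 in NIH3T3 cells, and Has2, the main hyaluronan synthase, had a log2 difference of 3.98. Tnxb, tenascin-X, read 383 and 412 in NIH3T3 cells and 24.0 and 24.2 in MC3T3 cells. Tgfbi and Thbs2, thrombospondin 2, were lower by -3.36 and -2.29.

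Matrix proteases and their inhibitors were mostly on the MC3T3 side, with a median log2 difference of 1.30. Of 14 tested 9 were higher, against 18.2% of all genes, and 1 was lower. Mmp16, a membrane-bound metalloproteinase, read 1846 and 2402 in MC3T3 cells and 20.2 and 15.2 in NIH3T3 cells. Timp3, the inhibitor that binds to the matrix itself, read 2666 and 2501 in MC3T3 cells and 20.4 and 25.5 in NIH3T3 cells. Ctsk, cathepsin K, the collagenase best known from osteoclasts, read 795 and 854 in MC3T3 cells and 41.0 and 26.1 in NIH3T3 cells. Adamts5, an aggrecanase, read 569.6 and 657 in MC3T3 cells and 55.6 and 75.0 in NIH3T3 cells. Proteases and an inhibitor were thus higher together. The member lower in MC3T3 cells was Plaur, the urokinase receptor, with -1.48.

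Integrins, the receptors for matrix, were higher in 2 and lower in 4 of 11 tested. Itga8, a receptor subunit for fibronectin and nephronectin, read 511 and 439.9 in MC3T3 cells and 8.50 and 11 in NIH3T3 cells, and Itga6, a laminin receptor subunit, differed by 1.86. Itga3, another laminin receptor subunit, read 1397 and 1237 in NIH3T3 cells and 132 and 129 in MC3T3 cells. Itgb2, the leukocyte beta chain, read 333 and 312 in NIH3T3 cells and 46.9 and 34.2 in MC3T3 cells, and Itgb7 and Itga5 were lower by -2.46 and -1.72, with Itga5 at -0.82 and not called when _x_at and _s_at probe sets were left out. Of the 9 other leukocyte list members with a named probe set, none reached 100 on 2 arrays. Among other adhesion molecules 4 of 9 were higher and 2 lower, with Jam3, a junctional adhesion molecule that binds leukocyte integrins, at 273 and 254 in MC3T3 cells and 32.0 and 33.1 in NIH3T3 cells.

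**Figure D3:**
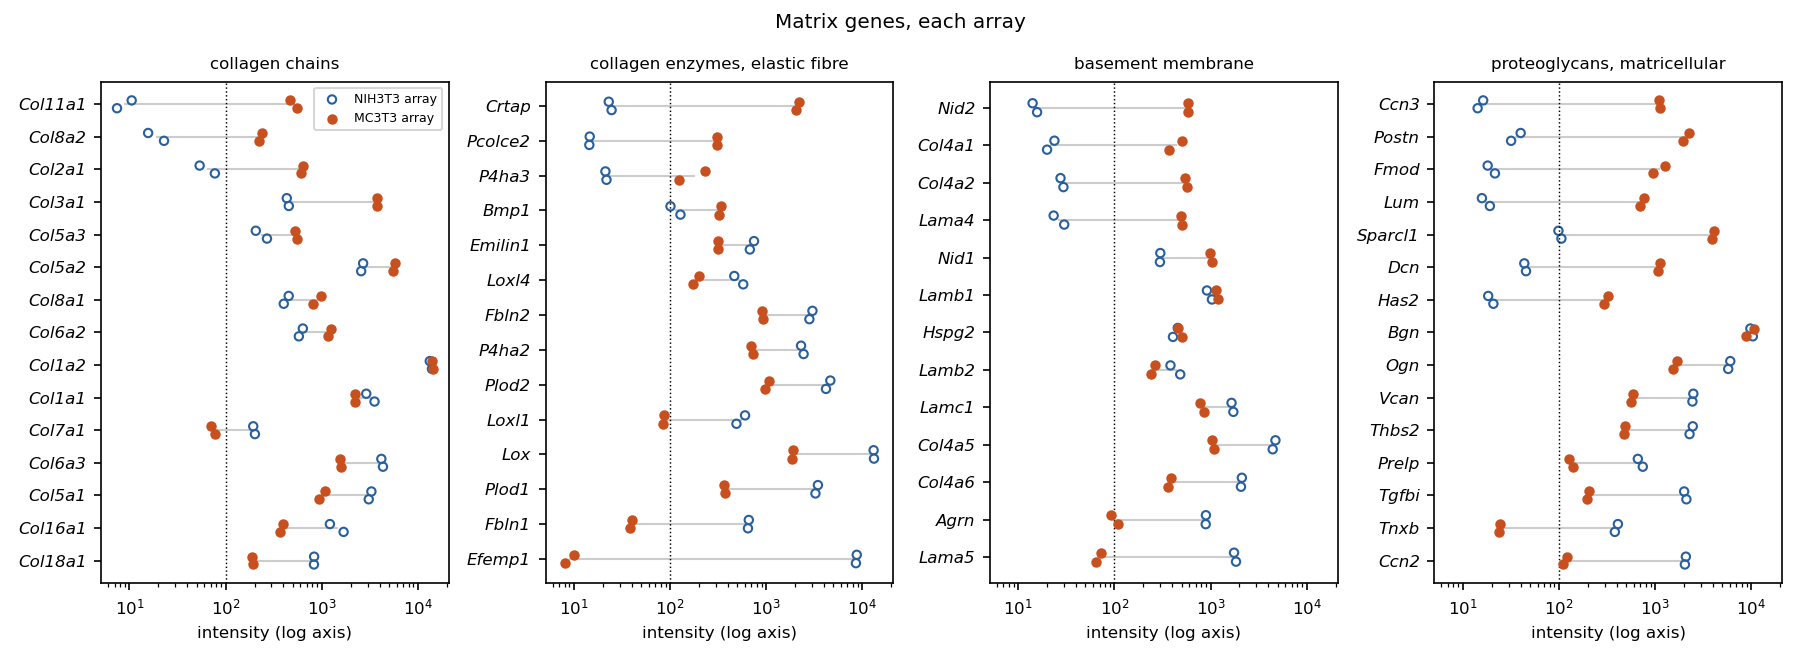
Intensity of each array (log axis) for matrix genes in 4 panels, collagen chains, collagen enzymes and elastic fibre proteins, basement membrane genes, and proteoglycans with matricellular proteins. Filled orange points are MC3T3 arrays, open blue points NIH3T3 arrays, the grey line joins the means and the dotted line marks 100. Every panel holds genes on both sides, such as Col4a1 against Col4a6 and Ccn3 against Ccn2.

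Of the Wnt system 10 genes were tested and 23 were below the level for testing. Among those tested 4 were higher in MC3T3 cells, against 18.2% of all genes, and none was lower. The called members were mostly secreted modulators. Rspo2, an R-spondin that strengthens Wnt signalling, read 1097 and 1242 in MC3T3 cells and 14.5 and 16.3 in NIH3T3 cells. Dkk3, a member of the Dickkopf family, read 1514 and 1596 in MC3T3 cells and 24.1 and 26.2 in NIH3T3 cells. Sfrp2, a secreted Frizzled-like protein that binds Wnt ligands, read 639 and 579 in MC3T3 cells and 13.4 and 13.1 in NIH3T3 cells. The receptor Fzd5 differed by 1.11, and all 4 called members had NIH3T3 levels under 100.

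In the BMP system 6 of 17 tested genes were higher in MC3T3 cells and 1 was lower, with 10 not called. Besides Id4, Id2, a target gene of BMP signalling, read 1450.0 and 1224 in MC3T3 cells and 76.3 and 92.2 in NIH3T3 cells. Fst, follistatin, which binds activins and BMP ligands, read 445 and 514 in MC3T3 cells and 11.9 and 12.9 in NIH3T3 cells. Bmp4, a BMP ligand, read 156 and 179 in MC3T3 cells and 40.9 and 28.1 in NIH3T3 cells, a log2 difference of 2.30 ± 0.19 (SE) with an adjusted p of 0.00022. Over a floor of 100 the difference in Bmp4 was 1.67-fold, below the 2-fold of a call. Acvr2b, a type II receptor for activins, read 188 and 175 in NIH3T3 cells and 29.4 and 28.5 in MC3T3 cells. The BMP receptor Bmpr1a read 846 and 818 in MC3T3 cells and 817 and 864 in NIH3T3 cells and its arrays overlapped, so the ligand and not this receptor was called.

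Of 16 tested TGF-beta genes 1 was higher and 3 were lower, so 25% were called against 28.3% of all genes. Tgfb2, a ligand, read 108 and 138 in MC3T3 cells and 34.5 and 32.0 in NIH3T3 cells. Tgfbr3, the co-receptor betaglycan, read 4160.0 and 4414 in NIH3T3 cells and 1578 and 1547 in MC3T3 cells. Skil, a repressor of Smad activity, was lower by -2.31 and Fstl3, a follistatin-like inhibitor, by -1.64. With values under 100 raised to 100 Tgfb2, at 0.29, and Fstl3, at -0.90, were no longer called, which left none higher and 2 lower. Tgfbr2, the type II receptor, read 2105 and 2153 in MC3T3 cells and 1082 and 1050.4 in NIH3T3 cells and with a log2 difference of 0.998 fell just short of the 2-fold needed for a call.

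Growth factors of the IGF family gave 2 genes higher and 3 lower of 10 tested. Igf1 read 1375 and 1690.0 in MC3T3 cells and 24.5 and 18.9 in NIH3T3 cells, a log2 difference of 6.15 ± 0.17 (SE). The binding protein Igfbp7 was higher by 3.15, and in 1 of its 2 probe sets. Igfbp6 read 4478 and 4346 in NIH3T3 cells and 1013 and 991 in MC3T3 cells, and Igfbp4 and the receptor Igf1r were lower by -1.78 and -1.04. Thus Igf1 and Igfbp7 stood on one side and Igf1r, Igfbp4 and Igfbp6 on the other. The difference in Igf1r was under 2-fold with median scaling, at -0.95, and with the mean of its probe sets, at -0.96. Igf2r read 1755 and 1715 in MC3T3 cells and 1781 and 1999.9 in NIH3T3 cells and was not called.

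In the FGF and HGF axes, with the TAM receptor ligand Gas6 among them, 7 of 14 tested genes were higher and 2 lower. Gas6 read 5331 and 5369 in MC3T3 cells and 82.9 and 67.2 in NIH3T3 cells. Etv5, an ETS factor induced by FGF signals, read 197 and 182 in MC3T3 cells and 13.4 and 14.4 in NIH3T3 cells, and Fgfr3 stood at 135 and 115 in MC3T3 cells and 35.4 and 32.9 in NIH3T3 cells. Lower were Gdnf, the glial cell line-derived factor, with 541 and 525 in NIH3T3 cells and 27.3 and 24.0 in MC3T3 cells, and Met, the HGF receptor, with a log2 difference of -1.71. With values under 100 raised to 100 the count of members higher went from 7 to 4.

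PDGF, VEGF and angiopoietin genes were divided, 4 higher and 6 lower of 12. The PDGF receptors went opposite ways. Pdgfrb read 1924 and 1996 in MC3T3 cells and 342 and 405 in NIH3T3 cells, whereas Pdgfra read 848 and 804 in MC3T3 cells and 2351 and 2304 in NIH3T3 cells. The difference in Pdgfra was under 2-fold with the mean of its probe sets, at -0.84. Pdgfd, a ligand of the beta receptor, read 514 and 467 in MC3T3 cells and 9.45 and 10.2 in NIH3T3 cells. Among the VEGF ligands Vegfb read 1072 and 1034 in MC3T3 cells and 379 and 401 in NIH3T3 cells, whereas Vegfa read 367 and 307 in MC3T3 cells and 1606 and 1625 in NIH3T3 cells. These pairs are ligands or receptors of 1 family with the order of the lines turned. Angptl4, an inhibitor of lipoprotein lipase, read 2169 and 2416 in NIH3T3 cells and 40.1 and 39.9 in MC3T3 cells. Nrp1, a co-receptor for VEGF and semaphorins, read 1463 and 2004 in NIH3T3 cells and 131 and 138 in MC3T3 cells, and Angpt1 was lower by -2.84, or -0.51 and not called with values under 100 raised to 100.

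Of 8 tested Notch genes 2 were higher and 3 lower. Notch1 read 445 and 489 in MC3T3 cells and 107 and 63.6 in NIH3T3 cells. Notch3 read 129.8 and 159 in NIH3T3 cells and 54.2 and 52.0 in MC3T3 cells and Notch2 was lower by -1.18. The call of Notch3 was lost with values under 100 raised to 100, at -0.52, and that of Notch2 with the mean of its probe sets, at -0.90. Dlk1, a delta-like protein of preadipocytes, read 594 and 617 in NIH3T3 cells and 21.4 and 31.0 in MC3T3 cells. The modifying enzyme Rfng was higher by 1.75. Notch3 and Dlk1 were measured by _s_at or _x_at probe sets, which can bind related transcripts. Of 5 tested genes of the EGF axis none was higher, and the ligand Hbegf and the feedback inhibitor Errfi1 were lower by -2.45 and -1.85. The EGF receptor ligand Ereg read 236 and 238 in MC3T3 cells and 281 and 396 in NIH3T3 cells and was not called.

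Chemokines were on the whole lower in MC3T3 cells, with a median log2 difference of -2.95. Of 13 tested 9 were lower, against 10.1% of all genes, and 1 was higher. Besides Ccl9 and Cxcl1, Cxcl5, a neutrophil attractant, read 393 and 362 in NIH3T3 cells and 9.41 and 9.24 in MC3T3 cells. Ccl7, a monocyte attractant, read 2714 and 2595 in NIH3T3 cells and 217 and 194 in MC3T3 cells. Ccl2, the main monocyte attractant of stroma, read 4616 and 4657 in NIH3T3 cells and 426 and 400.5 in MC3T3 cells, a log2 difference of -3.49 ± 0.09 (SE) with an adjusted p of 4.1e-06. The single chemokine higher in MC3T3 cells was Cxcl12, the ligand of Cxcr4 that holds B-cell precursors in the marrow. It read 487 and 560.4 in MC3T3 cells and 23.6 and 21.8 in NIH3T3 cells, a log2 difference of 4.52 ± 0.11 (SE) with an adjusted p of 3.5e-06. Ccl25, a thymic chemokine, read 146 and 164 in MC3T3 cells and 83.3 and 79.3 in NIH3T3 cells and at a log2 difference of 0.93 was not called.

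In the list of marrow niche and B-lymphoid support factors, which also holds Cxcl12, Vcam1, Igf1, Bmp4 and Ccn3, 7 genes were higher and 2 lower of 13 tested, with a median of 1.34. Il7, the growth factor of B-cell precursors, read 172 and 157 in MC3T3 cells and 17.3 and 18.4 in NIH3T3 cells, a log2 difference of 3.20 ± 0.10 (SE) with an adjusted p of 7e-06. Its fold over a floor of 100 was 1.64, below that of a call, and on this scale 4 in place of 7 niche genes were higher. Ebf3, a transcription factor of marrow stroma, read 350.0 and 257 in NIH3T3 cells and 36.3 and 46.0 in MC3T3 cells, and Angpt1, given above, was the other member lower. Cd80, a costimulatory ligand, read 115 and 144 in MC3T3 cells and 31.0 and 62.4 in NIH3T3 cells, with an adjusted p of 0.0081, and was not called without the second MC3T3 array, at 1.38, with the probe set chosen over all 8 arrays, at 0.85, or with values under 100 raised to 100, at 0.36.

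Cytokine and TNF receptors were higher in none and lower in 5 of 20 tested, with a median of -0.47. The 25% called were thus all lower. Over all genes 10.1% were lower, and 28.3% were called in either direction. Osmr, the oncostatin M receptor, read 1337 and 1635 in NIH3T3 cells and 157 and 167 in MC3T3 cells. Il6st, gp130, the signalling chain it shares with the receptors for interleukin 6 and leukemia inhibitory factor, read 2519.7 and 2739 in NIH3T3 cells and 424 and 370.2 in MC3T3 cells. Both chains of that receptor were therefore lower in MC3T3 cells. Tnfrsf1b, the second TNF receptor, read 628 and 592 in NIH3T3 cells and 74.8 and 82.3 in MC3T3 cells, whereas Tnfrsf1a, the first, read 1236 and 1339 in MC3T3 cells and 1123 and 1139 in NIH3T3 cells and was not called. Clcf1, a ligand of the gp130 family, was lower by -2.41. Ltbr, the lymphotoxin receptor, and the adhesion molecule Ncam1 differed by 0.56 and -0.26 and were not called.

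Complement and acute phase genes gave 4 lower and 1 higher of 6 tested, against 10.1% lower and 18.2% higher of all genes. Cp, ceruloplasmin, read 1183 and 1241 in NIH3T3 cells and 119.8 and 122 in MC3T3 cells. Clu, clusterin, read 1057 and 999 in NIH3T3 cells and 132 and 151 in MC3T3 cells, and Saa3, serum amyloid A3, differed by -2.51. Ptx3, a pentraxin that recognises microbes, ran against these with 1005 and 832 in MC3T3 cells and 21.5 and 15.3 in NIH3T3 cells. The stroma genes for which the study tabulated partners on blood cells were 26, and 8 of the 23 tested were higher in MC3T3 cells, 7 lower and 8 not called. Il1rn, Jam2 and Tgfa, the remaining 3, were below 100 on all arrays. That set was chosen by the study with these arrays in hand, so its counts are no independent evidence of a direction.

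**Figure D4:**
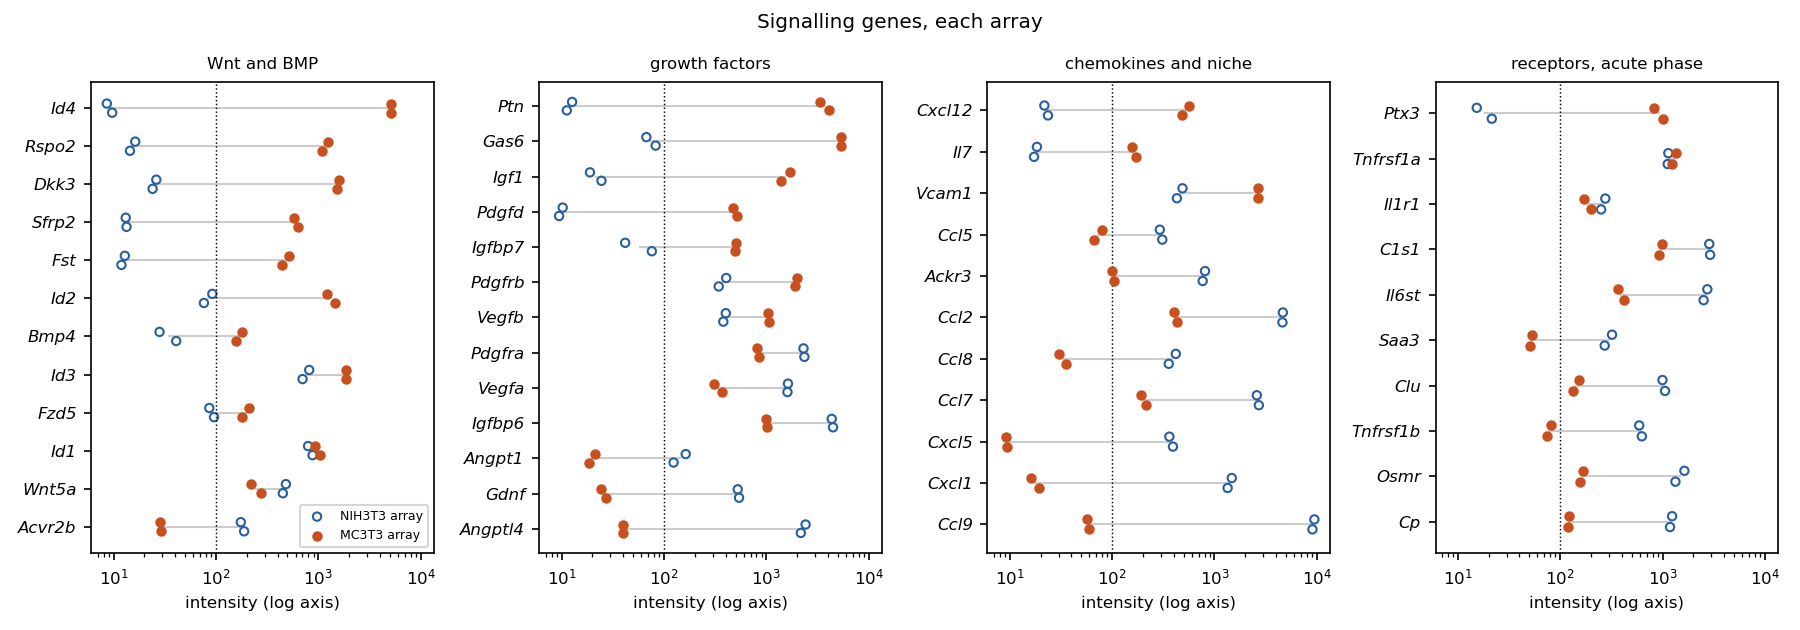
Intensity of each array (log axis) for genes of Wnt and BMP signalling, growth factors and their receptors, chemokines and niche factors, and receptors with acute phase genes. Filled orange points are MC3T3 arrays, open blue points NIH3T3 arrays, the grey line joins the means and the dotted line marks 100. Cxcl12, Il7 and Vcam1 are higher on both MC3T3 arrays, and Ccl2, Ccl7, Cxcl1 and Ccl9 on both NIH3T3 arrays.

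Cell cycle and replication genes were higher in MC3T3 cells in 21 of 28 tested, against 18.2% of all genes, and lower in 1. Their median log2 difference was 1.49. Aurkb, a kinase of chromosome segregation, read 1092 and 974 in MC3T3 cells and 99.5 and 169.9 in NIH3T3 cells. Ccnb2, a cyclin of mitosis, read 1489 and 1521 in MC3T3 cells and 195 and 270.3 in NIH3T3 cells. Ccne2, a cyclin of the entry into S phase, and its kinase Cdk2 differed by 2.76 and 2.69. Both mitotic and S phase genes were thus among the largest differences. Cdk6, a kinase of early G1, ran the other way with 2248 and 1956 in NIH3T3 cells and 528 and 509.9 in MC3T3 cells.

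Genes of the p53 pathway and CDK inhibitors were higher in 3 and lower in 3 of 17 tested, at counts like those of all genes. The called genes on the NIH3T3 side were the 3 Gadd45 genes, which respond to stress. Gadd45a read 1119 and 1109.8 in NIH3T3 cells and 73.9 and 68.5 in MC3T3 cells, and Gadd45b and Gadd45g differed by -2.51 and -1.31. Those on the MC3T3 side were the retinoblastoma family, Rbl2 with 1.45, Rbl1 with 1.09 and Rb1 with 1.08. With quantile normalization, or without the first NIH3T3 array, Rbl2 alone of these was called, with Rbl1 at 0.96 and 0.98 and Rb1 at 0.94 and 0.87.

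Cholesterol synthesis genes were higher in MC3T3 cells in 17 of 21 tested, against 18.2% of all genes, and lower in none. Their median log2 difference was 2.05. Cells make cholesterol from acetyl-CoA through mevalonate, isoprenoids and squalene, under the control of the Srebf2 factor. Tm7sf2, a sterol reductase, read 1243 and 1247 in MC3T3 cells and 119.7 and 121 in NIH3T3 cells. Idi1, the isomerase that makes the second isoprenoid unit, read 2974 and 3011 in MC3T3 cells and 331 and 307 in NIH3T3 cells. Fdft1, squalene synthase, read 1749 and 1702 in MC3T3 cells and 205 and 229.7 in NIH3T3 cells, a log2 difference of 2.99 ± 0.10 (SE) with an adjusted p of 8.9e-06. Stard4, a carrier of sterols, differed by 2.85. In every called member both lines were at 100 or more, so that none of these folds rests on background, and they ran from 1.04 to 3.37. Hmgcs1, the synthase at the start of the mevalonate branch, named for its promoter after its values were seen, read 5848 and 5559.9 in MC3T3 cells and 1847 and 2041 in NIH3T3 cells.

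The promoter windows of RefSeq, 250 bases before to 50 after each annotated start in GRCm38.p6, were searched for the sterol element TCACNCCAC on both strands. It occurred in 1 of 22 windows of the list, that of Hmgcs1, and in 1.24% of 32851 windows of all genes. The stretch from chr13:119690174-119690262 on the plus strand is shown with the matching letters in capitals, because it is the window of the list in which the element was found.
Hmgcs1: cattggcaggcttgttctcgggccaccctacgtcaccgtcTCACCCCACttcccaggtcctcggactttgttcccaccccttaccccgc

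Genes of hypoxia and glycolysis were higher in none and lower in 9 of 25 tested, against 10.1% lower of all genes. The median was -0.62 and 16 were not called. Such genes are driven by the factor Hif1a when oxygen is short. Adm, adrenomedullin, read 3507 and 3715 in NIH3T3 cells and 46.4 and 42.9 in MC3T3 cells. Ndrg1, a stress-induced cytoplasmic protein, read 11807 and 12293 in NIH3T3 cells and 824 and 855 in MC3T3 cells. Eno2, a neuronal enolase, read 2706 and 2503 in NIH3T3 cells and 235 and 242 in MC3T3 cells. Egln3, a prolyl hydroxylase that marks Hif factors for decay, read 1061 and 1188 in NIH3T3 cells and 156 and 170.2 in MC3T3 cells. All of these hypoxia-regulated genes were far apart between the lines, with no overlap of the arrays. Ero1a, an oxidase of the endoplasmic reticulum, the glucose transporter gene Slc2a1 and Bnip3, a mitophagy receptor, were lower in MC3T3 cells by log2 differences of -2.75, -1.81 and -1.01. These 3 genes were named after their values were seen. The 16 members not called lay between -0.93 and 0.68.

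The core of the hypoxia response element, ACGTG on both strands, was searched for in the same promoter windows. It occurred in 6 of 9 windows of called genes and in 13 of 22 windows of genes not called, against 19.6% of all 32851 windows, and a gene can have more than 1 window. Stretches of promoters with a match are shown for 3 called genes, Slc2a1 from chr4:119108669-119108744 on the plus strand, Bnip3 from chr7:138909570-138909654 on the minus strand and Ero1a from chr14:45318591-45318675 on the minus strand. For comparison stretches of 2 genes not called are shown, Pkm from chr9:59657112-59657196 on the plus strand and P4ha1 from chr10:59323240-59323295 on the plus strand. The log2 differences of these, glycolytic pyruvate kinase and a subunit of prolyl 4-hydroxylase, were -0.40 and -0.76, and both were chosen after their values were seen. Capitals mark the match or its reverse complement CACGT, and each stretch is written along the strand of its gene.
Slc2a1: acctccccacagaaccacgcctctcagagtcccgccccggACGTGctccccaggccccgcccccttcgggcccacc
Bnip3: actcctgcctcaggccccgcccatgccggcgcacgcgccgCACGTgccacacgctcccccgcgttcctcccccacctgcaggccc
Ero1a: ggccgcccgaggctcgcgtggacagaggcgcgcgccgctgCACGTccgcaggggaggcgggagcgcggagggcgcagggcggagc
Pkm: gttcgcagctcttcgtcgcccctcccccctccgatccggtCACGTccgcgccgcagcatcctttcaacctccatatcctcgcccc
P4ha1: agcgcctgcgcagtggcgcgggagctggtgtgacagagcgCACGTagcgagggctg
A match describes these letters and says nothing of binding.

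**Figure D5:**
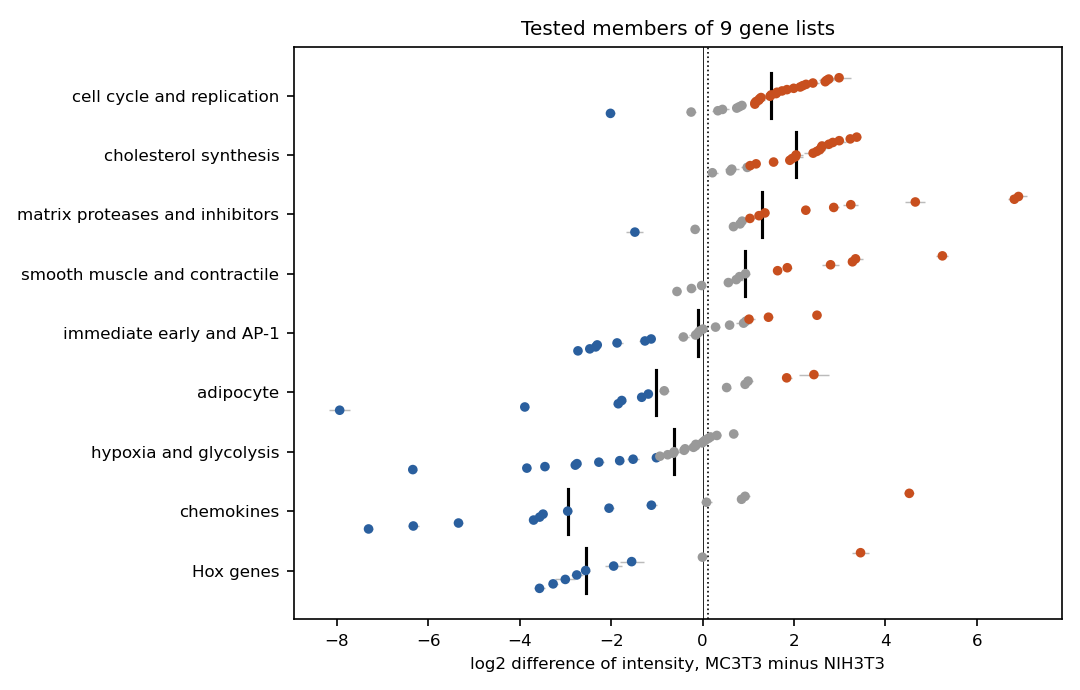
log2 difference of intensity, MC3T3 minus NIH3T3, for each tested member of 9 gene lists. Orange points were called higher in MC3T3 cells, blue points lower and grey points were not called, grey bars are standard errors, black bars are list medians, the solid line marks 0 and the dotted line the median of all genes, 0.12. The medians run from 2.05 for cholesterol synthesis to -2.95 for chemokines.

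Adipocyte and lipid genes were higher in 2 and lower in 6 of 12 tested, with a median of -1.01. Over all genes tested 18.2% were higher and 10.1% lower. Besides Lpl, Pparg, the leading factor of fat cell formation, read 314 and 341 in NIH3T3 cells and 21.9 and 22.3 in MC3T3 cells. Cebpb, an early factor of the same programme, read 4969 and 4479 in NIH3T3 cells and 1384 and 1249 in MC3T3 cells. Plin2, a coat protein of lipid droplets, read 7818 and 8239 in NIH3T3 cells and 2382 and 2333 in MC3T3 cells. The defining fat cell markers Cebpa, Fabp4 and Adipoq were below 100 in both lines. Higher in MC3T3 cells were Agpat2, an enzyme of glycerolipid synthesis, with 309 and 287 in MC3T3 cells and 79.8 and 37.9 in NIH3T3 cells, and Fasn, fatty acid synthase, with 1459.9 and 1427 in MC3T3 cells and 374 and 434 in NIH3T3 cells. Averaging the probe sets of each gene turned the median of this list to 0.73, while Lpl and Pparg stayed lower in MC3T3 cells.

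Of 28 tested antioxidant and glutathione genes 4 were higher and 4 lower, so 28.6% were called, a share like the 28.3% of all genes. The called members were large differences. Besides Prdx4, Gpx7, a peroxidase of the endoplasmic reticulum, read 801 and 836 in MC3T3 cells and 53.3 and 40.5 in NIH3T3 cells. Nqo1, a quinone reductase, read 2717 and 2515 in MC3T3 cells and 307 and 402 in NIH3T3 cells. Besides Mgst1, Sod3, the extracellular superoxide dismutase, read 877 and 968 in NIH3T3 cells and 58.7 and 59.5 in MC3T3 cells, and Gsta4 and Gclm differed by -2.68 and -1.91. Ahr, the receptor of dioxin that drives Cyp1a1, lies outside the rule for named genes and was chosen after its values were seen. It read 963 and 1086 in MC3T3 cells and 13.8 and 12.05 in NIH3T3 cells, next to Cyp1a1 with 2329.7 and 2178 in MC3T3 cells and 18.9 and 18.1 in NIH3T3 cells. Nqo1 and Aldh3a1, further genes known to respond to that receptor, ran in opposite directions, as Aldh3a1 read 7642 and 6962 in NIH3T3 cells and 91.9 and 95.3 in MC3T3 cells.

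Immediate early and AP-1 genes were higher in 3 and lower in 7 of 19 tested. Junb read 812 and 883 in NIH3T3 cells and 153 and 154 in MC3T3 cells. Ier3, a stress response gene, read 5202 and 5642 in NIH3T3 cells and 1116 and 1029 in MC3T3 cells, and Myc read 2668 and 2893 in NIH3T3 cells and 565 and 561 in MC3T3 cells. Klf2 ran the other way with 566 and 606 in MC3T3 cells and 99.2 and 107 in NIH3T3 cells, as did Egr2 and Klf6 with 1.44 and 1.02. Klf6 went this way in 3 of 4 probe sets.

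Semaphorins, slits and their receptors were higher in 3 and lower in 7 of 16 tested. Sema3a, a repulsive guidance ligand, read 2034 and 1848 in MC3T3 cells and 24.6 and 21.5 in NIH3T3 cells, and Ntn1, netrin-1, differed by 3.16. The neuropilin Nrp1, a receptor of Sema3a, was lower in MC3T3 cells as given above, as were Sema5a, Sema3c and Plxna2 by -3.09, -2.38 and -2.02. Sema5a was not called with values under 100 raised to 100, at -0.51 with an adjusted p of 0.095. The ligand Sema3a was thus high in the line in which Nrp1 was low. Of 9 tested Eph and ephrin genes 1 was called, Efna1, lower by -1.11.

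Imprinted genes were higher in 4 and lower in 3 of 10 tested. Besides Dcn and Dlk1, Sgce, a sarcoglycan, read 742 and 796 in MC3T3 cells and 40.1 and 44.8 in NIH3T3 cells, and Plagl1, a zinc finger factor, differed by 2.18. Grb10, an adaptor that restrains insulin and IGF signals, read 3163 and 3094 in NIH3T3 cells and 98.0 and 104 in MC3T3 cells. Kcnq1ot1, a long non-coding RNA, was lower by -1.48.

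Of 16 tested interferon response genes 2 were higher and 2 lower, so 25% were called against 28.3% of all genes. Ifitm1, a membrane protein that restricts viruses, read 461 and 355 in MC3T3 cells and 39.4 and 67.1 in NIH3T3 cells, and the kinase Eif2ak2 differed by 1.33. Bst2, tetherin, read 355 and 421 in NIH3T3 cells and 121 and 95.5 in MC3T3 cells, and Irf1 differed by -1.43. Of 12 tested genes of antigen processing and MHC class I 4 were lower and 1 higher. Tap1 and Tap2, the chains of the peptide transporter, went opposite ways at 1.04 and -1.42. The immunoproteasome subunit Psmb9 was lower by -1.46.

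Markers of other cell types differed in level. The summed level of 5 smooth muscle markers was 4002 and 4314 in MC3T3 cells and 355 and 293 in NIH3T3 cells. Most of the MC3T3 sum was Acta2, which alone read 3778 and 4064 in MC3T3 cells and 115 and 92.5 in NIH3T3 cells. Besides Acta2, 3 of these markers were below the level for testing and 1 was not called. The sum of 5 chondrocyte markers was 1070 and 1111 in MC3T3 cells and 408 and 323 in NIH3T3 cells. Only Col2a1 and Sox9 among them were tested, and 3 were below the level for testing. Of 5 macrophage markers 3 were below 100, among them Csf1r and Adgre1, while Cd68 read 523 and 541 in NIH3T3 cells and 21.8 and 22.4 in MC3T3 cells and Lyz2 read 108 and 109 in MC3T3 cells and 37.8 and 35.7 in NIH3T3 cells. The summed level of the 5 markers was 233 and 241 in MC3T3 cells and 687 and 695 in NIH3T3 cells. Of 5 epithelial markers Krt8 and Krt14 were lower in MC3T3 cells by -1.24 and -2.43. In the list of neural and Schwann genes Map2 and Tubb3, neuronal cytoskeletal proteins, were higher by 3.69 and 2.18. Nes and Sox10 were not called, at -0.42 and -0.19, and 6 other members were below the level for testing. The leukocyte sum was 153 to 169.9 in MC3T3 cells and 182 to 258 in NIH3T3 cells, all from probe sets near background. Among pre-B cell genes Ebf1 read 139 and 122 in MC3T3 cells and 43.7 and 60.5 in NIH3T3 cells and Blnk read 132 and 232 in NIH3T3 cells and 51.9 and 37.1 in MC3T3 cells. The 4 sex chromosome genes with a named probe set were not tested. Xist read 33.4 and 34.2 in MC3T3 cells and 51.4 and 31.5 in NIH3T3 cells, and of the Y-linked genes Eif2s3y read 78.6 and 108 in MC3T3 cells and 10.97 and 11.2 in NIH3T3 cells, with Kdm5d at 29.0 and 30.5 in MC3T3 cells and 7.14 and 8.41 in NIH3T3 cells and Uty at 17.4 and 28.0 in MC3T3 cells and 14.4 and 12.99 in NIH3T3 cells. Eif2s3y was higher on the MC3T3 arrays, at most 108, and no gene of this set was at 100 on 2 arrays.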

How the data were processed

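RNA of MC3T3 and NIH3T3 cells was compared on 4 of the 8 arrays of the series, 2 per line. The values deposited by the authors are normalized intensities, on a linear scale, of 45101 probe sets. The methods mention RMA Express, affylmGUI and dChip, without naming the program behind these values. Probe sets took their gene from the annotation of the array, where 34958 had 1 symbol, 932 several and 9211 none, and those with several or none were left unnamed.

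Intensities were analysed as log2, without a pseudocount. Each gene was represented by the probe set of highest mean over the 4 arrays, and was tested if it was at 100 or more on at least 2 of them. The lines were compared with lmFit and eBayes of limma 3.58.1 in R 4.3.3, on 2 residual degrees of freedom before moderation, with Benjamini-Hochberg adjustment over 9486 genes. The procedure was tested on simulated data. The low number of arrays limits the precision, and background compresses the folds of dim genes. Over genes, which are not independent, the log2 values of the arrays had a correlation of 0.9961 for MC3T3 and 0.9892 for NIH3T3.

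The lines, gene lists and markers were chosen with earlier results of these data known. A gene may stand in several lists, and lists are described by counts and medians. Genes named in the text were the 15 of largest fold in each direction, up to 4 called members of a list in each direction with the largest fold, members of the osteoblast, Hox and sex chromosome lists, markers, and the stroma genes tabulated in the study. Others are marked as chosen after their values were seen. Promoter sequences are those of RefSeq in GRCm38.p6.

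As alternatives the filter was dropped or set at 200, probe sets were chosen over all 8 arrays, all 8 arrays entered the fit, and quantile normalization, median scaling, a pseudocount of 16, a floor at 100, a trended robust prior and a block for the replicate number were used. Probe sets were averaged per gene, tested singly or used without _x_at and _s_at sets, the call was made with no minimum fold, at 5-fold or at an unadjusted p below 0.01, and each array was left out in turn.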

Additional observations from a re-analysis of the deposited data

How the results depend on the processing

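With 2 arrays per line the spread rests on few values, and dim probe sets are bounded by background. The number of genes called, 2682, of which 1724 were higher and 958 lower in MC3T3 cells, stayed within 1.5 times under the other filters, scalings, models and floors. It became 5300, with 3251 higher and 2049 lower, when each of 17407 probe sets was tested on its own. It became 6581, with 3840 higher and 2741 lower, with no minimum fold, and 5660, with 3361 and 2299, at an unadjusted p below 0.01. A 5-fold minimum left 699 genes, 465 higher and 234 lower. Leaving out an array in turn gave 2591 to 2810 genes, 1607 to 1860 higher and 921 to 984 lower, with the lone array of a line assumed to vary like the other line.

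The replicate numbers of the arrays were shared between the lines. Over genes, the deviations of same-numbered arrays from their line means had a correlation of 0.024. That value shows little shared shift between same-numbered arrays. It cannot tell whether they were paired, since it rests on 2 arrays per line, and the labels do not say. With the number as a block 2685 genes were called, 1725 higher and 960 lower.

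Of 234 called genes named in the text, 196 were called in the same direction under every alternative that measured them at the 2-fold minimum. Not counted here were the calls at 5-fold, with no minimum fold or at an unadjusted p, and the tests of single probe sets. Most of those lost were lost with a floor at 100, and the values there, beside those given above, were Lyz2 at 0.12, Krt8 at -0.29, Fgfr3 at 0.32, Ebf1 at 0.38, Psmb9 at -0.52, Krt14 at -0.61, Meis1 at -0.79, Blnk at -0.81, Acvr2b at -0.86, Etv5 at 0.92, Fzd5 at 0.97 and Tap1 at 0.999. With the mean of the probe sets Lamc1 stood at -0.76, Klf6 at 0.81 and Igf1r at -0.96. With quantile normalization Tap1 and Klf6 stood at 0.90 and Fzd5 at 0.97. With median scaling Anpep and Bnip3 stood at -0.92, Igf1r at -0.95 and Lamc1 at -0.97. Genes that were near 2-fold were lost without 1 array. Without the first NIH3T3 array Bnip3 stood at -0.99, Igf1r at -0.91, and without the second Col5a3 stood at 0.99, Klf6 at 0.93, Sox9 at 0.95 and Tap1 at 0.93. Without the first MC3T3 array Igf1r stood at -0.96, Klf6 at 0.89 and Notch2 at -0.9996, and without the second Anpep stood at -0.79, Fzd5 at 0.99, Lamc1 at -0.98, Tap1 at 0.78 and Cd80 at 1.38. Twist1 was gained at -1.01 without the first NIH3T3 array, Tgfbr2 at 1.02 without it and at 1.01 without the first MC3T3 array, where Ccl25 was also gained at 1.01.

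Some genes that were not called changed sign. Bmpr1a stood at 0.0736 with median scaling, at 0.36 with the mean of its probe sets and at -0.0543 to 0.0270 with an array left out. Hoxc9 stood at 0.0850 with median scaling and at -0.0769 to 0.0726 with an array left out. With the mean of the probe sets Col1a2 stood at -0.89, Igf2r at 0.0261 and Sparc at -0.0788.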
